A study of Mus musculus with 3 samples.

Results

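The genes described here encode the proteins of the cytosolic ribosome. They were chosen by name, as every probe whose single gene symbol was Rpl or Rps followed by a digit, or Rplp0, Rplp1, Rplp2 or Rpsa, leaving out the Rps6k kinases and pseudogene symbols. That gave 70 probes for 68 genes, of 13697 genes named on the array. Of the 68, 63 were standard ribosomal proteins, 22 of the small and 41 of the large subunit, out of 77 on the list used here. The remaining 5 were paralogs, second copies of a ribosomal protein gene: Rpl3l, Rpl7l1, Rpl36al, Rpl39l and Rps27l. The other 14 standard proteins were not analysed here.

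The samples were fetal livers of mouse embryos at stage E14.5, counted in days of gestation, with 1 single-colour CodeLink oligonucleotide array for each of 3 genotypes. One was wild-type, the next lacked DNase II, and the last lacked both DNase II and IFN-IR, which is the type I interferon receptor. The double mutant shares the loss of DNase II with the single mutant, and no array carried the receptor loss alone. The labels used here do not say how many embryos went into an array, of which strain, or in which cells each gene was lost. With 1 array a genotype there is no replicate, so no difference below carries a test, and the number of arrays limits the precision.

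A ribosome consists of a small subunit, which reads the messenger RNA, and a large subunit, which joins amino acids, and most of its proteins are present in a single copy. Their messenger RNAs begin with a tract of pyrimidines, the terminal oligopyrimidine or TOP motif, through which the kinase mTORC1 sets how strongly they are translated. At this age most red cells are made in the fetal liver, and red cell precursors are unusually sensitive to a shortage of ribosomal proteins: mutations in many of these genes cause Diamond-Blackfan anaemia in people.

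The genotypes rest on the labels. Values in 3s are given throughout in the order wild-type, DNase II-deficient, double-deficient. Dnase2a, the gene of DNase II, read 40.4, 48.6 and 39.7, so its probe did not tell the mutants from wild-type, and where it lies relative to the deletion is not known here. The receptor gene Ifnar1 read 3.60, 4.66 and 3.17, and Ifnar2 0.574, 0.485 and 0.483, so neither probe set the array labelled double-deficient clearly apart from wild-type. The tissue's own cells were seen. The 4 of 5 hepatocyte markers measured summed to 1882, 1920.1 and 1630.4. Within that sum Afp (583, 885 and 568) was highest without DNase II and Serpina1a (294, 130.02 and 248) lowest. The 3 of 5 erythroid markers measured (Klf1, Epb42 and Slc4a1) summed to 84.0, 29.8 and 71.6. No marker was listed below the floor defined below. The macrophage marker Adgre1 was dim, at 0.269, 0.282 and 0.271.

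Markers of cell types differed between the same arrays. All 3 erythroid markers measured were at least 1.5-fold lower without DNase II and all 3 were higher in the double mutant than in the single mutant. All 5 granulocyte markers were at least 1.5-fold higher in both mutants than in wild-type, with sums of 69.5, 219.6 and 162. Of 3 macrophage markers, Cd5l and Marco were lower in both mutants, and the sums were 72, 7.67 and 17.8. In whole tissue fewer cells of a type and less RNA per cell cannot be told apart, and the part of cell composition in the differences described here was not tested.

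Every value is the deposited intensity, in arbitrary units, on arrays whose medians were 0.958, 0.959 and 0.963. Of the 70 probes, 68 lay above the 75th percentile of each array, and the median probe read 339, 321 and 330.0. A probe's brightness depends on its sequence as well as on the RNA, so levels were compared between arrays and not between genes. The exceptions were Rps20, a small subunit protein, at 2.80, 1.93 and 2.47, and Rpl3l, the striated-muscle copy of Rpl3. Rpl3l read -0.01, 0.01 and 0.00, below the array's 25th percentile in all 3 arrays. Values below that percentile (0.162, 0.159 and 0.163) were set to it, and a comparison took every gene that exceeded the median of either array in it. Rpl3l did not, which left 67 genes in each comparison.

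**Figure D1:**
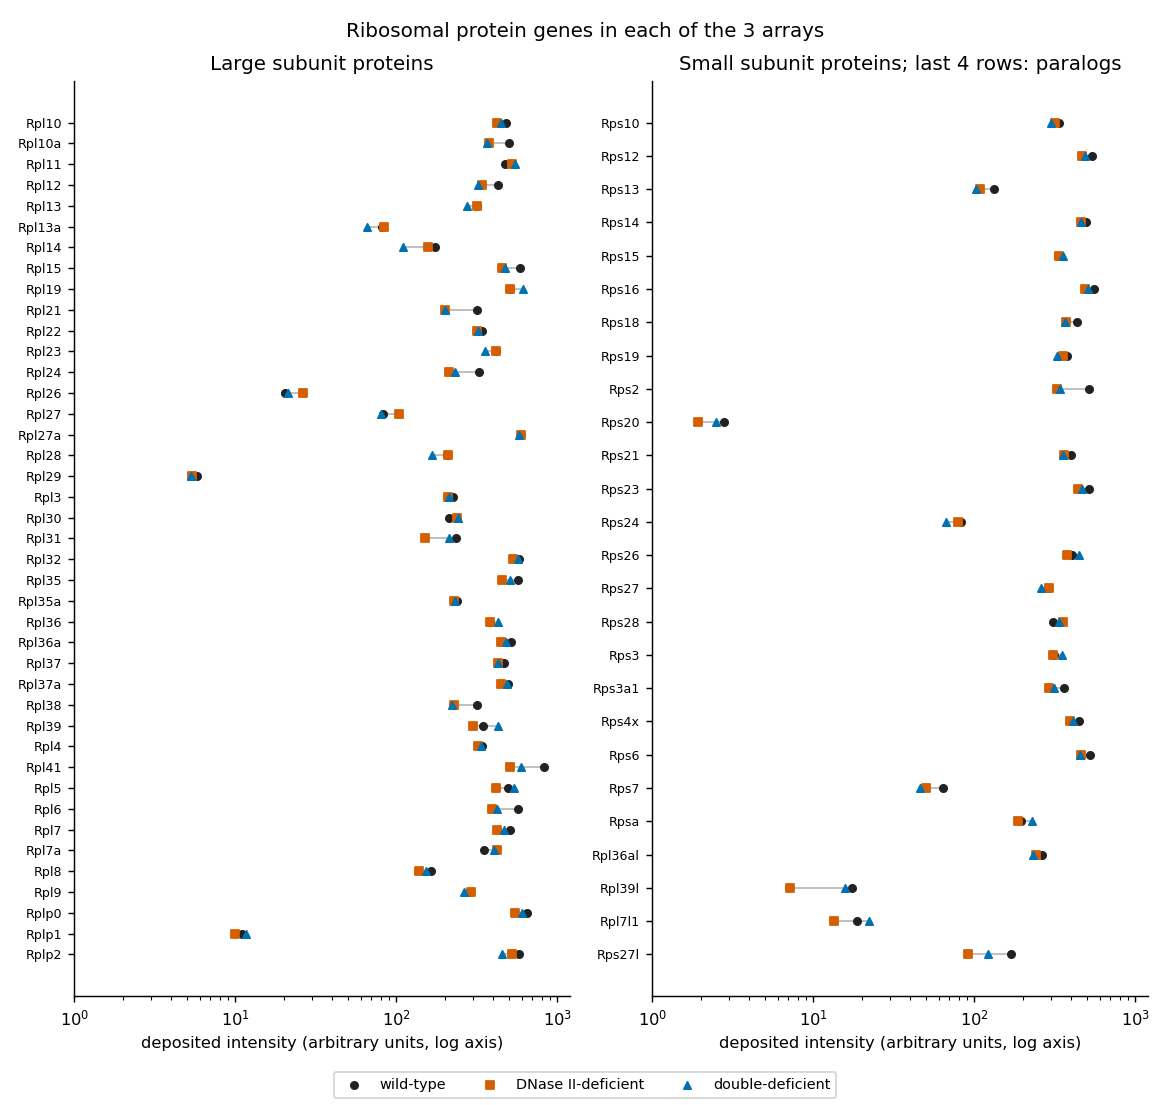
Deposited intensity (arbitrary units, log axis) of 67 ribosomal protein genes, 1 row a gene, in the wild-type (black circle), DNase II-deficient (orange square) and double-deficient (blue triangle) arrays; each point is 1 array, and Rpl3l, below the floor in all 3, is left out. The points of most rows lie close together, and the widest row is that of the paralog Rpl39l, at 17.3, 7.12 and 15.7.

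As deposited, most ribosomal protein genes read nearly the same in all 3 arrays. The highest of a gene's 3 values was a median of 1.19 times the lowest, and for 58 of 67 genes it was less than 1.5 times the lowest. The other 9 genes were 13.4% of the members, against 39.0% of all 8462 genes compared. That contrast is not matched for brightness, since member probes were 46, 47 and 44 of the 100 brightest probes in the 3 arrays. Rpl4, a large subunit protein that lines the exit tunnel, read 339 in wild-type, 323 without DNase II and 335 in the double mutant. Rpl27a read 598, 591 and 581, and its second probe 143, 141 and 129. Rps14, a small subunit protein, read 491, 457 and 462. For these genes no array stands apart by more than 1.11-fold as deposited on the probe used. After cyclic loess their log2 differences without DNase II were 0.30 for Rpl4, 0.37 for Rpl27a and 0.28 for Rps14. These genes were chosen after their values were seen.

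The comparison of the DNase II-deficient with the wild-type array asks what differs in fetal liver without the nuclease. Here the ribosomal protein genes kept together more than genes in general did. Their median log2 difference was -0.15 as deposited, beside -0.21 for all 8383 genes compared, and their interquartile range ran from -0.30 to -0.03, beside -0.51 to 0.18. None of the 67 was at least 1.5-fold higher, against 13.3% of all genes, and 7, or 10.4%, were at least 1.5-fold lower, against 20.2%. Only Rpl39l was 2-fold lower, against 6.17% of all genes, and none was 2-fold higher, against 7.67%. The spread was also set beside that of bright genes. The scaled median absolute deviation was 0.20 over the members and 0.39 over the 500 brightest genes compared. Those 500 include most members and also genes dimmer than the typical member, so they are not a match for brightness.

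The sign of that median is set by how the arrays are scaled. Of the 67 members, 54 read lower without DNase II as deposited, and 13 higher, beside 65.7% and 34.3% of all genes. The median of the members was -0.01 after scaling each array to its 75th percentile, 0.03 after quantile normalisation and 0.21 after cyclic loess, while all genes lay at -0.07, -0.07 and 0.03. Relative to all genes the members were higher by 0.06, 0.06, 0.10 and 0.19 in the order deposited, 75th percentile, quantile, loess. That position depends on the level filter: over all 13697 genes with no filter, the members lay at -0.14 and all genes at -0.04, so the members were the lower. The genes so added exceeded neither array's median, and a gene at the floor in both arrays, such as Rpl3l, reads -0.03 by the floors alone. With a stricter filter at the 75th percentile the members lay 0.118 above all genes. The counts of 7 lower and 0 higher members at 1.5-fold became 2 and 0 (75th percentile), 1 and 2 (quantile) and 1 and 3 (loess). Of all genes, 14.1%, 14.1% and 10.6% were then lower in that order, in place of 20.2%. The shares of all genes higher were 16%, 15.5% and 18.1%, in place of 13.3%. Over these scalings and a centring on all genes, 13 members stayed negative, 13 stayed positive and 41 took both signs.

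**Figure D2:**
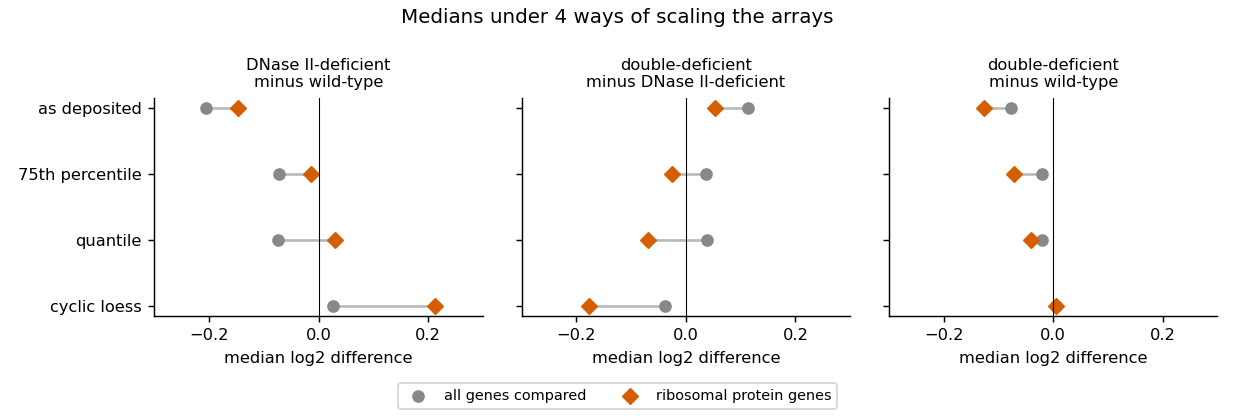
Median log2 difference (x axis) of the 67 ribosomal protein genes (orange diamond) and of all genes compared (grey circle) with the arrays as deposited and under 3 other scalings (rows), 1 panel a comparison. The members' median without DNase II moves from -0.15 as deposited to 0.21 after cyclic loess and crosses 0, while it stays to the right of the grey circle in all 4 rows.

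**Figure D3:**
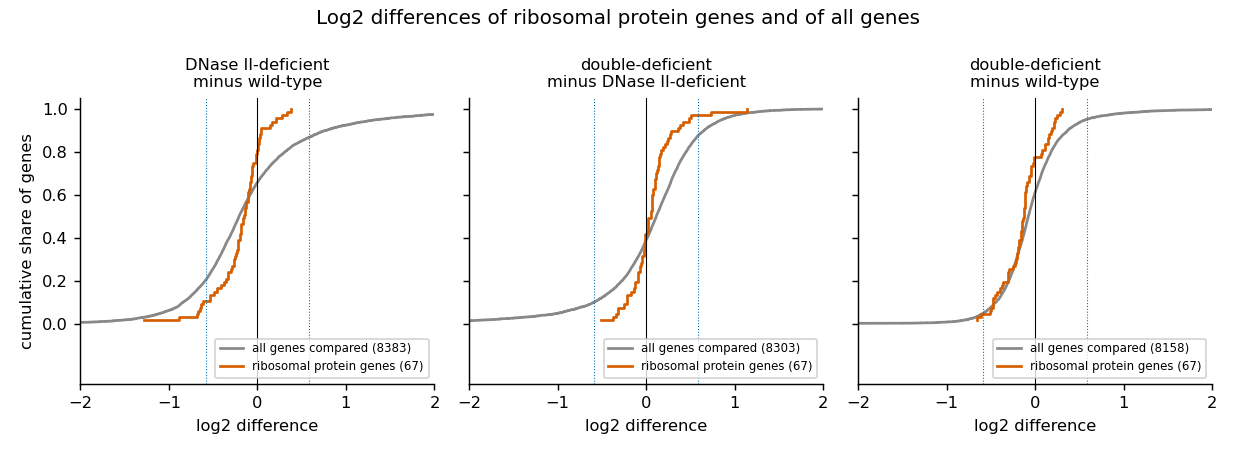
Cumulative share of genes (y axis) at or below each log2 difference (x axis, values as deposited) for ribosomal protein genes (orange) and all genes compared (grey), 1 panel a comparison; dotted lines mark 1.5-fold. The orange curve is the steeper one in the comparisons with the DNase II-deficient array, and its interquartile range is -0.30 to -0.03 against -0.51 to 0.18 in the left panel; the position of its median relative to 0 changes with the scaling.

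Among the members that stood lowest without DNase II, the paralogs came first. Rpl39l, a copy of Rpl39 that is best known from the testis, read 17.3 in wild-type, 7.12 without DNase II and 15.7 in the double mutant. It was 2.43-fold lower without DNase II, and the double mutant lay next to wild-type. Its only probe was dim beside the members' median probe, which read 321 without DNase II. Rpl39 itself, which lines the exit tunnel, read 343, 299 and 425, with the double mutant the highest. Rps27l, a copy of Rps27 that is a p53 target in human cells, read 169, 91.1 and 121, so it was 1.85-fold lower and the double mutant lay between the others. Its parent Rps27 read 285, 291 and 257.

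The other paralogs differed less from wild-type. Rpl7l1, a relative of Rpl7 that acts in ribosome assembly, read 18.8, 13.4 and 22.2, with the single mutant the lowest. Rpl7 read 505, 422 and 466. Rpl3, the parent of Rpl3l, read 223, 210.5 and 213. Rpl36al read 264, 242 and 231 and its near-identical parent Rpl36a 519, 444 and 477, so both were highest in wild-type. The 4 paralogs compared had a median of -0.69, beside -0.14 for the 63 standard proteins. How far a paralog's probe also binds its parent's RNA was not tested.

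Of the 63 standard proteins, 5, or 7.94%, were at least 1.5-fold lower without DNase II, beside 20.2% of all genes. Rpl41, the smallest ribosomal protein, read 820.0, 511 and 591. Rps2, a small subunit protein at the entry of the messenger RNA, read 518, 326 and 338. Both mutants were low for both genes. Rpl21 read 315, 201 and 199, Rpl24, which bridges the subunits, 327, 213 and 232, and Rpl31, which sits at the tunnel exit, 235, 151 and 211. The double mutant was low for Rpl21 and Rpl24 but near wild-type for Rpl31. Just outside the threshold were Rps20, from the dim probe given above, and Rpl6 at 567, 391 and 422. Rpl38 (315, 229 and 221) and Rpl10a (502, 378 and 366) followed, and were again low in both mutants.

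These differences shrank under other scalings but did not turn. Over the 5 settings the log2 difference ran from -1.28 to -1.01 for Rpl39l, from -0.89 to -0.54 for Rps27l, from -0.68 to -0.30 for Rpl41, from -0.67 to -0.29 for Rps2, from -0.65 to -0.28 for Rpl21, from -0.63 to -0.27 for Rpl31 and from -0.62 to -0.25 for Rpl24. Only Rpl39l was 1.5-fold lower in all 5. For Rpl21, Rpl24, Rpl41, Rps2 and Rps27l the double mutant lay nearer to the DNase II-deficient array than to wild-type under all 5 scalings. For Rpl31 and Rpl39l it lay nearer to wild-type under all 5.

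**Figure D4:**
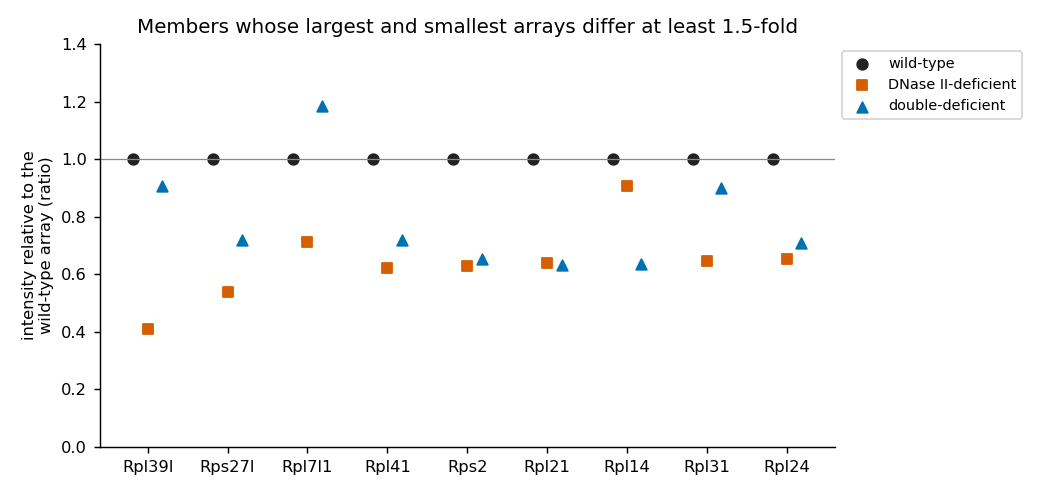
Intensity relative to the wild-type array (ratio, values as deposited, axis from 0) of the 9 members whose highest and lowest arrays differ at least 1.5-fold; black circle wild-type, orange square DNase II-deficient, blue triangle double-deficient, 1 array each. Rpl41, Rps2, Rpl21 and Rpl24 are low in both mutants, Rpl39l and Rpl31 are lowest in the DNase II-deficient array and Rpl14 in the double-deficient array.

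At the other end were members that read higher without DNase II, all by less than 1.5-fold as deposited. Rpl26 read 20.3, 26.5 and 21.2, and Rpl27 82.6, 104 and 79.9, both highest without DNase II and alike in the other arrays. Rpl7a read 348, 421 and 405, Rps28 308, 356 and 334, and Rpl30 212, 238 and 242, so for these both mutants lay above wild-type. Rpl11 read 471, 522 and 544. Rpl13a and Rpl9 (284, 291 and 264) completed the 8 highest, both at 0.04. The log2 difference of Rpl26 was 0.38 as deposited and 0.68 after cyclic loess, and that of Rpl27 0.33 and 0.67, and both passed 1.5-fold under quantile and loess scaling.

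The promoters at both ends of this ranking are shown because the TOP motif starts at the first base of the RNA. Each run below covers 30 bases, 10 before and 20 from the annotated start, taken from RefSeq on GRCm38.p6 on the gene's strand. Capitals mark the longest run of at least 5 pyrimidines that begins with C, anywhere in the window. No run shown begins at the annotated start itself, so a marked run is not by itself a TOP motif. The first 6 are members at least 1.5-fold lower without DNase II, and the last 5 are the highest members with a window. For Rps27l the upstream of its annotated starts is shown, and the window of its other start holds no such run and none of the motifs searched. No window was matched for Rpl21.
Rpl39l, chr16:10170218-10170247, plus strand: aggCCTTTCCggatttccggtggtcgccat
Rps27l, chr9:66946076-66946105, plus strand: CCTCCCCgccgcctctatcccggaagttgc
Rpl41, chr10:128549149-128549178, minus strand: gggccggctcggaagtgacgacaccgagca
Rps2, chr17:24720053-24720082, plus strand: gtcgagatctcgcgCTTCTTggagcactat
Rpl31, chr1:39367841-39367870, plus strand: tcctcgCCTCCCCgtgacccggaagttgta
Rpl24, chr16:55966265-55966294, plus strand: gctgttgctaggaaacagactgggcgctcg
Rpl11, chr4:136053374-136053403, minus strand: ccataaggccacggggccggaagtCTCCCT
Rps28, chr17:33824543-33824572, minus strand: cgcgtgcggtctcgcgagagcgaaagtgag
Rpl7a, chr2:26910797-26910826, plus strand: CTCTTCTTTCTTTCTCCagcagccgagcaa
Rpl27, chr11:101442235-101442264, plus strand: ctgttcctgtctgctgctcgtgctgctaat
Rpl26, chr11:68901556-68901585, plus strand: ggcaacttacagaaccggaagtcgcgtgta

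Windows were found for 57 of the 68 members, 68 windows in all since some genes have several starts. Such a pyrimidine run, anywhere in the 30 bases, was present in 57.4% of the member windows and in 35.8% of all 32851 windows. Annotated starts can be off by some bases, so a run outside this span is missed. The 36 compared members with the run had a median of -0.20 without DNase II as deposited, and the 20 without it -0.09. The letters CCGGAAG, the core bound by ETS family factors, were searched on both strands over 300 bases. They occurred in 36.8% of member windows and 8.86% of all windows, in 5 of the 6 lower genes shown, and in 2 of the 7 genes with a window among the 8 highest. The medians were -0.21 for the 24 members with these letters and -0.11 for the 32 without. GGGCGG, bound by Sp factors, occurred in 58.8% of member windows against 35.7% of all, AAGATGGC, bound by YY1, in 10.3% against 2.75%, the E-box CACGTG in 8.82% against 7.15% and TATAAA in 8.82% against 13.6%. Matches of CCGGAAG and AAGATGGC can share the letters AAG. These matches describe the sequences and were not tested against the differences.

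Members with a special role within the ribosome are given next, and those described here differed by less than 1.5-fold between any of the arrays. Rplp0, the base of the stalk that recruits elongation factors, read 647, 543 and 600.2, Rplp2 of the same stalk 579, 523 and 449.6, and Rplp1 11.1, 9.88 and 11.7. Wild-type was highest for Rplp0 and Rplp2, and no order is shared by the 3. Rpl5 and Rpl11 together carry the ribosome's smallest RNA and, when free, bind the p53 inhibitor Mdm2. Rpl5 read 491, 416 and 541, so its lowest value was that without DNase II, whereas Rpl11, given above, was lowest in wild-type. Rps6, the substrate of S6 kinase, read 522, 457 and 451. Rpsa, which is also a laminin receptor, read 195, 188 and 226.

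Rps19, the first gene linked to Diamond-Blackfan anaemia, read 374, 356 and 326. The 16 measured genes tied to that anaemia had a median log2 difference of -0.07 without DNase II, beside -0.16 for the other 47 standard proteins, and 1 of them, Rpl31, was at least 1.5-fold lower. The 22 small subunit genes had a median of -0.16 and the 41 large subunit genes -0.14, with 1 and 4 members at least 1.5-fold lower. These counts were 6.25% of the anaemia genes, 4.55% of the small and 9.76% of the large subunit genes, beside 20.2% of all genes. The 26 proteins with a bacterial counterpart lay at -0.19 and the 37 without one at -0.14. The medians of the subunits and the anaemia genes were negative as deposited and turned positive after cyclic loess, for the small subunit to 0.22, the large subunit to 0.22 and the anaemia genes to 0.29.

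The comparison between the mutants asks what the receptor's loss alters in the absence of DNase II. The median of the 67 members was 0.05 as deposited, beside 0.11 for all 8303 genes, and their interquartile range ran from -0.07 to 0.14, beside -0.18 to 0.38. This comparison and the one before share the DNase II-deficient array. No member was at least 1.5-fold lower in the double mutant, against 10.0% of all genes, and 2 were higher, against 12.5%: Rpl39l by 2.20-fold and Rpl7l1 by 1.66-fold. Only Rpl39l passed 2-fold, beside 3.11% of all genes higher and 4.85% lower. No standard protein reached 1.5-fold as deposited, and 39 members were above 0 and 28 below, beside 60.9% and 39.1% of all genes. The median was negative under the other scalings, at -0.03 (75th percentile), -0.07 (quantile) and -0.18 (cyclic loess), and under each it lay below that of all genes. With no level filter it lay at 0.05 and all genes at 0.04, so that order too depends on the filter. A gene at the floor in both arrays reads 0.04 by the floors alone. With the filter at the 75th percentile the members' median minus that of all genes was -0.115. The spread over the members was 0.15, beside 0.33 among the 500 brightest genes.

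After the 2 paralogs the highest members in the double mutant were Rpl39, with a log2 difference of 0.51, Rpl31 (0.48), Rps27l (0.41), Rpl5 (0.38), Rps20 (0.36) and Rpl19 (0.28). Rpl19, a large subunit protein that reaches to the small subunit, read 505, 507 and 614, so only the double mutant was high. The lowest was Rpl14, at -0.51, which read 173, 157 and 110.3 and was lowest in the double mutant. Rpl27 (-0.38) and Rpl26 (-0.32) lay near wild-type. Rpl13a read 81.2, 83.4 and 65.7, Rpl28 206, 208 and 167, and Rps24 82.2, 79.4 and 66.8, each lower in the double mutant than in both others. Rpl23 (414, 414 and 355) had the same order. Rpl14 was 1.5-fold lower under each of the other 4 scalings, and Rpl39l was 1.5-fold higher under all 5.

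The comparison of the double mutant with wild-type asks what remains without DNase II when the receptor is lost too; it shares an array with each of the others. The median of the 67 members was -0.13 as deposited, beside -0.08 for all 8158 genes, and 52 members were below 0 and 15 above, beside 61.1% and 38.9% of all genes. The members' median stayed negative at -0.07 (75th percentile), -0.04 (quantile) and -0.05 (centred), and was 0.01 after cyclic loess. Of the members, 3, or 4.48%, were at least 1.5-fold lower, beside 4.85% of all genes: Rpl21, Rpl14 and Rps2. None was 1.5-fold higher, beside 4.89%, and none passed 2-fold, beside 0.735% of all genes lower and 2.05% higher. The share of lower members was thus close to that of all genes. The members' spread was 0.16, beside 0.21 among the 500 brightest genes.

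The lowest members after these 3 were Rpl38 at -0.51, Rpl24 at -0.50, Rps7 at -0.48, Rps27l at -0.48 and Rpl41 at -0.47. Rps7, a small subunit protein, read 63.8, 50.1 and 45.9, low in both mutants. The highest were Rpl39 at 0.31, Rpl19 at 0.28, Rpl7l1 at 0.24, Rpl7a at 0.22 and Rpsa and Rpl11 at 0.21, followed by Rpl30 at 0.19 and Rps3 at 0.18. Wild-type gave the highest of the 3 values for 46 of 67 members as deposited, or 68.7%, against 49.2% of all genes. The DNase II-deficient array was lowest for 35 members, or 52.2%, near the 55.2% of all genes. The double-deficient array was lowest for 25, or 37.3%, against 21.2% of all genes. These orders were taken from the deposited values only and depend on the scaling. Over the 5 scalings 41 of 67 members took both signs in DNase II-deficient minus wild-type. In double-deficient minus DNase II-deficient 28 did, and in double-deficient minus wild-type 20.

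Genes that make and serve the ribosome were set beside its proteins, from lists chosen by function. The proteins of the mitochondrial ribosome, which translates the mitochondrial genome, lay lower without DNase II than the cytosolic ones. Of 67 compared, 18, or 26.9%, were at least 1.5-fold lower as deposited, beside the 20.2% of all genes, none was 1.5-fold higher, and the median was -0.45. Mrpl20 read 105, 45.3 and 94.2, Mrpl49 13.5, 6.31 and 10.4, Mrpl28 31.8, 15.5 and 29.5 and Mrps25 48.3, 24.9 and 35.6, each lowest without DNase II. Mrpl30 went the other way, at 82.3, 95.4 and 72.9. Over the 5 scalings their median lay 0.12 to 0.24 below that of all genes, and 8 to 18 members were 1.5-fold lower. The count of 8 of 67 was that after cyclic loess, where 10.6% of all genes were lower. In the double mutant against the single mutant their median was 0.22, beside 0.11 for all genes. As deposited 9 members, or 13.4%, were at least 1.5-fold higher, close to the 12.5% of all genes, and none was lower.

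Ribosome assembly factors, the nucleolar proteins that process ribosomal RNA and fit the proteins to it, had a median of -0.39 without DNase II, with 13 of 64 at least 1.5-fold lower and none higher. The 13 are 20.3% of the list, close to the share of all genes. The helicase gene Ddx21 read 4.63, 2.14 and 4.61, the exosome subunit gene Exosc2 26.1, 14.2 and 23.7, and Bysl, a factor of the small subunit, 8.24, 4.52 and 7.96. For all 3 the double mutant lay near wild-type. Emg1 read 104, 58.9 and 66.0, low in both mutants, and Wdr43 9.11, 11.6 and 10.6. Relative to all genes the list's median was lower by 0.15 to 0.19 without DNase II over the 5 scalings, and in the double mutant against the single mutant it was higher by 0.14 to 0.18, with 7 of 65, or 10.8%, at least 1.5-fold higher as deposited, below the 12.5% of all genes. RNA polymerase I, which transcribes the ribosomal RNA, had a median of -0.29. At least 1.5-fold lower were 3 of 12 genes as deposited, near the 20.2% of all genes. Under quantile, loess and centred scaling 1 of 12 was lower, beside 14.1%, 10.6% and 11.4% of all genes. The 3 lower as deposited were Taf1c (3.18, 1.81 and 2.99), Polr1e (13.7, 8.10 and 11.9) and Ubtf (7.61, 5.04 and 6.67).

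**Figure D5:**
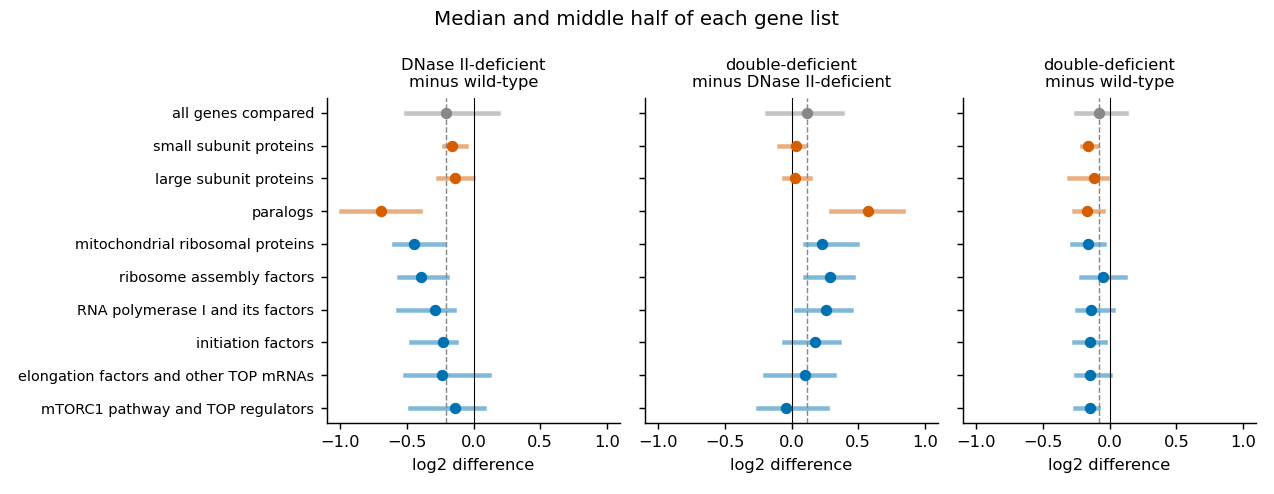
Median (point) and interquartile range (bar) of the log2 difference (x axis, values as deposited) of each gene list, 1 panel a comparison; grey all genes compared, with its median as a dashed line, orange ribosomal protein genes, blue other lists. Without DNase II the mitochondrial ribosomal proteins and the assembly factors have medians of -0.45 and -0.39 and both cytosolic subunits lie at -0.16 and -0.14; after cyclic loess the subunit medians are positive and those of the 2 other lists stay negative.

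Other genes of translation had medians close to the -0.21 of all genes. The initiation factors had a median of -0.23, with 4 of 26, or 15.4%, at least 1.5-fold lower, beside 20.2% of all genes. The lowest was Eif5, which acts at the choice of the start codon, at 87.3, 42.6 and 82.0. Eif2s3y, a gene of the Y chromosome, was 2.18-fold higher, and the sex of the embryos in each array is not known here. The 20 elongation factors and other genes with a TOP motif had a median of -0.24, with 3 members at least 1.5-fold lower and 2 higher, both shares below those of all genes. Eef1d, a subunit of the exchange factor of elongation, read 385, 238 and 409.6, whereas Btf3 (242, 156 and 163) and Tpt1 (313, 203 and 209) were low in both mutants. Eif4a2, an initiation helicase, read 14.1, 23.6 and 11.1 and Vim 44.6, 84.9 and 71.3. Fau, whose product is cut into a small subunit protein and a ubiquitin-like protein, read 123.2, 148 and 95.8.

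Regulators of ribosomal protein synthesis were looked at last. In the mTORC1 list 2 of 17 genes, or 11.8%, were at least 1.5-fold lower without DNase II, beside 20.2% of all genes, and 3, or 17.6%, were higher, beside 13.3%. Eif4ebp1, the repressor of cap-dependent translation that mTORC1 inactivates, read 14.3, 25.9 and 13.4, Tsc1, an inhibitor of mTORC1, 0.604, 1.5 and 0.558 from a dim probe, and Myc, which drives ribosome production, 4.49, 7.02 and 5.09. Each was highest without DNase II. Tsc1, like Eif2ak2 below, exceeded the array median only in the DNase II-deficient array, so it was compared only because it read high there. With the filter at the 75th percentile, 2 of 12 genes of the mTORC1 list were higher and 1 was lower. Sesn3 read 5.0, 2.79 and 3.38 and Tia1, a repressor of TOP messages, 7.59, 4.66 and 4.82. Of the 4 kinases of the initiation factor eIF2-alpha, Eif2ak2, the interferon-induced kinase PKR, read 0.428, 2.03 and 0.326 and Eif2ak3 2.97, 5.30 and 3.55, while Eif2ak1 (2.76, 2.63 and 2.66) and Eif2ak4 (1.89, 1.96 and 1.82) were level. Of 13 p53 targets, 7, or 53.8%, were at least 1.5-fold higher without DNase II, beside 13.3% of all genes, and 1, or 7.69%, was lower, beside 20.2%. In double-deficient minus wild-type only 12 were compared, so the remaining target was compared here only through the DNase II-deficient array. With the filter at the 75th percentile, 5 of 9 p53 targets were higher and none was lower, beside 11.8% and 23.3% of all genes. Only 6 passed that filter in double-deficient minus wild-type. Rps27l is not on the p53 list.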

How the data were processed

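Fetal liver RNA of 3 genotypes was measured on 1 array each, so groups were single arrays named by their labels. Per the labels, poly(A) RNA was copied, transcribed with a biotinylated nucleotide, hybridised and read with CodeLink software. The deposited values are normalised intensity on a linear scale; no source used here gives the software's version, background method or normalisation. Such scaling makes each level relative to its array.

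Of 20289 probes, 125 lacked a value and were left out. Names came from the platform annotation (15120 probes with 1 symbol, 38 with several, 5131 with none), and all 68 member symbols matched the reference table. Each gene was read from its brightest probe, by mean log2 intensity. Differences are of log2 intensity after the floor, counted at 1.5-fold and 2-fold, without tests. Percentages of all genes give the background. Quantile and cyclic loess scaling used limma 3.58.1 in R 4.3.3; the rest used Python 3.11.15 with pandas 2.3.3. The floor, the choice of probe and the log2 difference were tested on simulated arrays. The simulation held no shift between arrays and did not cover the scalings, the lists or the promoter search.

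Members and the 13 lists were chosen with earlier results of these data known. Genes were named by rule: the 8 highest and 8 lowest members per comparison, members below the floor, paralogs with their parents, selected special members, and up to 4 members per other list with up to 2 of opposite sign. Rpl4, Rps14, Rpl27a, Myc and Tpt1 lie outside the rule and were chosen after their values were seen.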

Additional observations from a re-analysis of the deposited data

How the results depend on the processing

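No paired analysis was possible because each genotype has 1 array. Settings were scaling (4), filter (2), floor, probe choice and standard proteins only. The 5 settings other than scaling kept each median within 0.1 and each count within 1.5 times, except that with standard proteins only 0 members were 1.5-fold higher between the mutants.

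Scaling set the sign of the medians in the comparisons with the DNase II-deficient array. DNase II-deficient minus wild-type went from -0.15 to -0.014 (75th percentile), 0.0301 (quantile), 0.0592 (centred) and 0.212 (loess), with 2, 1, 2 and 1 members 1.5-fold lower in that order in place of 7, and 0, 2, 1 and 3 higher in place of 0. Of all genes 14.1%, 14.1%, 11.4% and 10.6% were lower in place of 20.2%, and 16%, 15.5%, 17.9% and 18.1% higher in place of 13.3%. Double-deficient minus DNase II-deficient went from 0.05 to -0.025, -0.0684, -0.0612 and -0.177, with 1, 1, 1 and 2 members lower in place of 0, and 1 higher under loess in place of 2. Of all genes 11.9%, 11.7%, 12.9% and 13.8% were lower in place of 10.0%, and 7.69% higher under loess in place of 12.5%. Double-deficient minus wild-type went from -0.13 to -0.0723, -0.0412, -0.051 and 0.00565, so only loess crossed 0. It had 2, 0, 1 and 0 members lower in place of 3, beside 3.59%, 3.64%, 3.17% and 3.24% of all genes in place of 4.85%. With no level filter the members' median minus that of all genes turned, from 0.06 to -0.10 without DNase II and from -0.06 to 0.01 between the mutants. With the filter at the 75th percentile it kept its sign, at 0.118 and -0.115. How much of the turn comes from genes set to the floor was not tested. Dim probes such as Rps20, Rpl29, Rpl39l and Rplp1 are the least certain, and saturation of bright probes was not tested. Without DNase II the Rpl39l probe read 7.12, below the 9.88 of Rplp1.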
